A study of Mus musculus with 30 samples.

Results

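The miRNAs miR-378 and miR-378* are the opposite strands of 1 hairpin, and both were followed here in the hearts of mice that had received carbon black nanoparticles. They were chosen by name: mmu-miR-378 and mmu-miR-378*, 2 of the 1136 miRNAs on the array and 2 of the 306 mouse miRNAs that passed the filter on dim probes. Each has 2 probes, and all 4 probes were detected on 29 of 29 arrays, so neither member was lost to the filter. Current naming calls miR-378 the 3p strand and miR-378* the 5p strand of miR-378a.

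Female C57BL/6 mice, acquired at 5 to 6 weeks of age, were instilled once through the trachea and killed 1, 3 or 28 days later. The exposed mice received 162 µg of Printex 90, a commercial carbon black made of nanometre-sized particles, suspended in saline with cell-free lung lavage fluid from other mice of the strain. The vehicle mice received no particles (0 µg). Total RNA enriched for small RNA came from a random heart section holding both ventricles, and each array carried the RNA of 1 mouse. Scanner values were read for 4 vehicle and 6 Printex 90 mice at day 1, for 6 vehicle and 4 Printex 90 mice at day 3, and for 4 vehicle and 5 Printex 90 mice at day 28. A further Printex 90 mouse at day 3 had values in the authors' table of the series but no signals in its scanner file. Every exposure contrast is between particles in vehicle and vehicle alone. Because a whole section was measured, fewer cells of a type and less RNA per cell cannot be told apart.

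The hairpin of miR-378a lies within the span of Ppargc1b in the RefSeq gene table (GRCm38.p6). Ppargc1b encodes PGC-1β, a coactivator of genes for mitochondrial respiration and fatty acid oxidation. Both strands are made from the host transcript, and both act as miRNAs: known targets include Crat, a carnitine acetyltransferase of mitochondria, for miR-378, and Med13, a subunit of the Mediator complex, for miR-378*. Mice without the hairpin burn more fat and resist weight gain on a rich diet. In the heart, miR-378 is abundant in cardiomyocytes, where it is known to target the growth factor receptor gene Igf1r and to restrain hypertrophy.

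Neither strand passed the test between exposed and vehicle hearts on any day, and neither passed with time. Levels are log2 array signals with every array divided by its own 75th percentile, taken over probes that no array missed. The 6 group means spanned 9.94 to 10.02 for miR-378 and 8.54 to 8.61 for miR-378*. The levels of the strands are not set against each other, since their probes share no scale. With 95% intervals from limma, exposure changed miR-378 by a factor of 0.937 to 1.12 at day 1, 0.964 to 1.16 at day 3 and 0.911 to 1.10 at day 28. The same intervals for miR-378* were 0.879 to 1.10, 0.862 to 1.08 and 0.871 to 1.10. These intervals hold for this scaling only. Under other processing, single slides included, the log2 difference in miR-378 ran from -0.15 to 0.21 at day 1. It ran from -0.037 to 0.20 at day 3 and from -0.17 to 0.16 at day 28. Some of these values lay outside the intervals, and none that was tested was called.

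**Figure D1:**
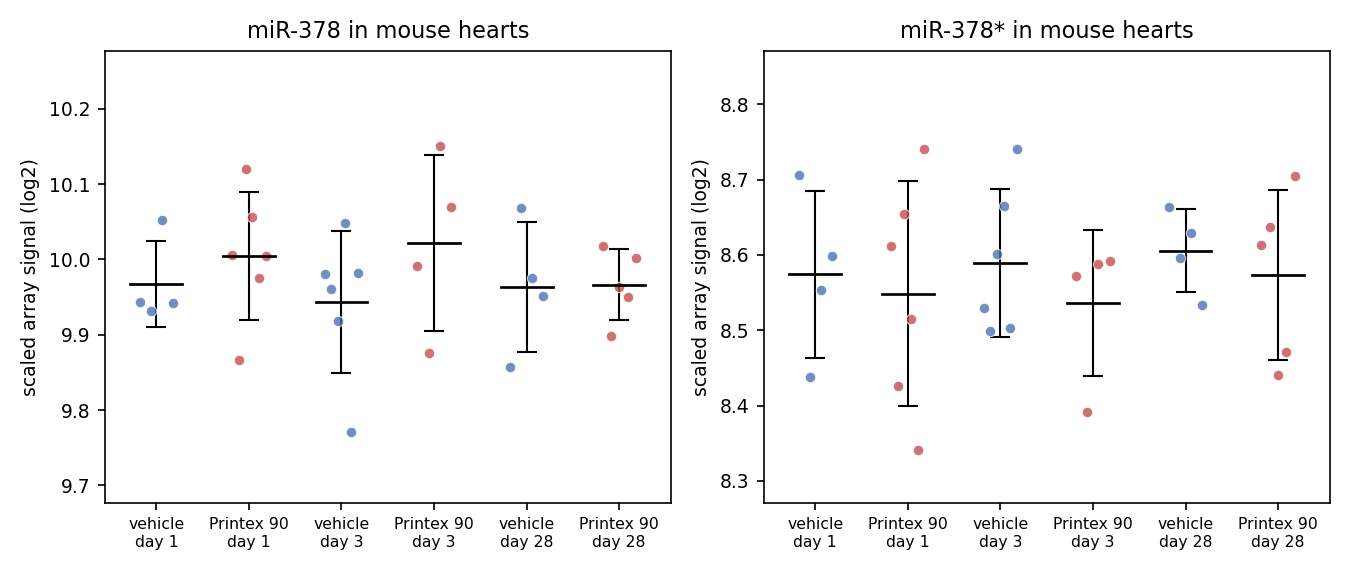
Scaled array signal (log2, y axis) of miR-378 (left) and miR-378* (right) by treatment and day (x axis); each point is 1 mouse, the long bar is the group mean and the whiskers are 1 SD. The group means of miR-378 lie between 9.94 and 10.02 and those of miR-378* between 8.54 and 8.61, and the points of vehicle and Printex 90 mice overlap on every day.

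At day 1, miR-378 measured 9.94, 9.93, 10.05 and 9.94 in the 4 vehicle hearts. In the 6 Printex 90 hearts it had a lowest value of 9.87, a median of 10.00 and a highest of 10.12. Of these 6 hearts, 5 were above the vehicle mean, 2 were above every vehicle heart and 1 was below every vehicle heart, so the groups overlapped. The means were 9.97 ± 0.057 (SD, n = 4) and 10.00 ± 0.085 (SD, n = 6), a difference of 0.037 (SE 0.064, limma adjusted p = 0.898). No miRNA of the 306 passed the adjusted threshold of 0.05 in limma at day 1 (0% called, 2 at an unadjusted p under 0.05).

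At day 3, the 6 vehicle hearts had miR-378 values from 9.77 to 10.05 with a median of 9.97. The 4 Printex 90 hearts measured 9.99, 9.88, 10.15 and 10.07, and 2 of these 4 were above every vehicle heart. The means were 9.94 ± 0.094 (SD, n = 6) and 10.02 ± 0.12 (SD, n = 4), and this gap of 0.078 (SE 0.064, limma adjusted p = 0.999) was smaller than the SD of either group. Over all 306 miRNAs limma called 0% at day 3, with 1 at an unadjusted p under 0.05. Without the exposed heart at 9.88 (replicate 2) the day 3 difference was 0.13, and without the one at 10.15 (replicate 4) it was 0.035; neither was called.

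At day 28, miR-378 measured 9.86, 10.07, 9.98 and 9.95 in vehicle hearts and 10.02, 9.90, 9.96, 9.95 and 10.00 in Printex 90 hearts. All 5 exposed values lay inside the range of the vehicle values. The difference was 0.0028 (SE 0.066, limma adjusted p = 0.996), the smallest of the 3 days. Again 0% of the 306 miRNAs were called by limma, and 1 had an unadjusted p under 0.05. Averaged over the days, miR-378 was 0.039 higher in exposed hearts (95% interval -0.037 to 0.12, limma adjusted p = 0.994), where 0% were called and 0 had an unadjusted p under 0.05.

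The star strand gave differences smaller than their standard errors at days 1 and 3, and their sign turned under other scalings (0.15 at day 1 with the percentile over all probes, 0.070 at day 3 with no scaling). At day 1 it measured 8.71, 8.44, 8.55 and 8.60 in the vehicle hearts, and its lowest, median and highest values in the Printex 90 hearts were 8.34, 8.56 and 8.74. Exposed hearts lay on both sides of the vehicle range, with 2 below it and 1 above it, and the difference was -0.026 (SE 0.078, limma adjusted p = 0.937).

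For day 3 the vehicle hearts ran from 8.50 to 8.74 with a median of 8.57, against 8.57, 8.39, 8.59 and 8.59 in the Printex 90 hearts. One value stood below the vehicle range, the 8.39 of replicate 2, the heart that was also lowest of the 4 for miR-378. The day 3 difference in miR-378* was -0.054 (SE 0.078, limma adjusted p = 0.999), and without that heart it was 0.00044. At day 28 the vehicle hearts measured 8.66, 8.60, 8.63 and 8.53, and the Printex 90 hearts 8.61, 8.64, 8.44, 8.47 and 8.70. The exposed hearts were the more widely spread, with 2 below and 1 above the vehicle range, and the difference was -0.032 (SE 0.081, limma adjusted p = 0.950). The mean over days was -0.037 (95% interval -0.13 to 0.057, limma adjusted p = 0.994).

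Exact two-sided permutation tests of each day gave p = 0.471, 0.281 and 0.984 for miR-378 and p = 0.781, 0.424 and 0.619 for miR-378*, 6 tests in all. The smallest p these designs allow is 0.0048 at days 1 and 3 and 0.0079 at day 28.

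**Figure D2:**
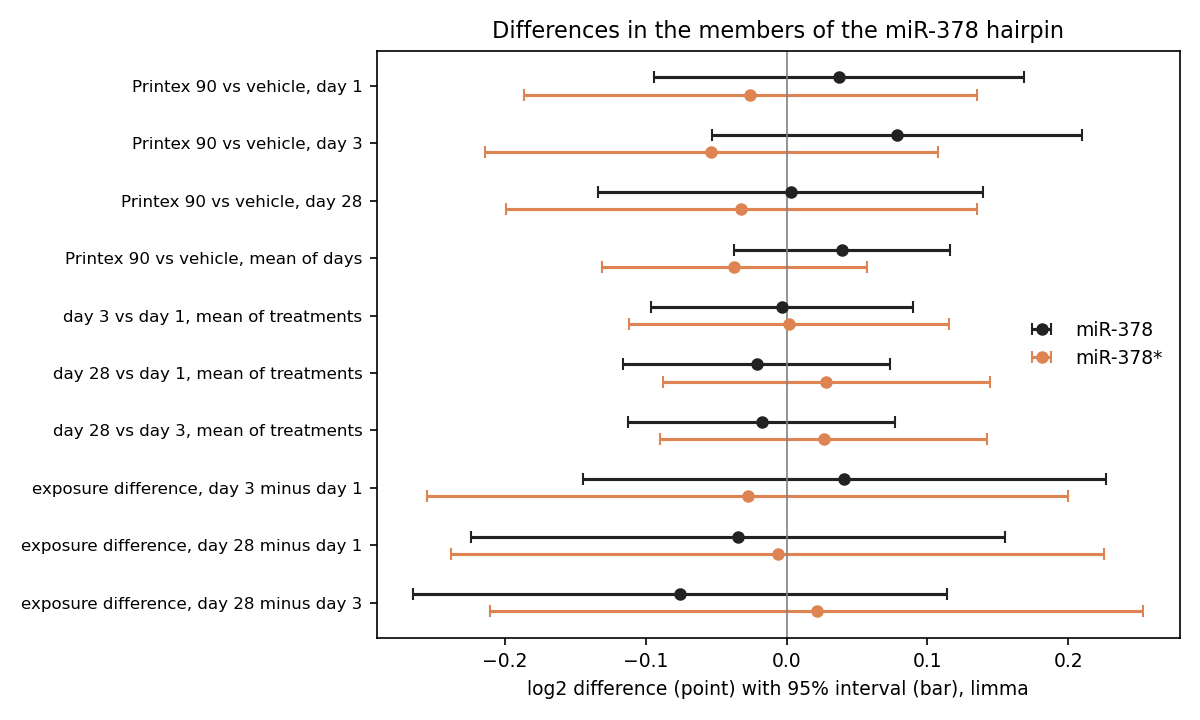
Differences in log2 signal (x axis) for the 10 comparisons (y axis), with miR-378 in black and miR-378* in orange; points are limma estimates and bars their 95% intervals. All 20 intervals include 0, and the exposure intervals of single days run from -0.21 to 0.21.

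Some miRNAs of the heart changed with time after instillation, while neither strand passed the test. Every group was instilled, so time after instillation and age at death cannot be told apart. From day 1 to day 28, over both treatments, miR-378 differed by -0.021 (SE 0.046, limma adjusted p = 0.991) and miR-378* by 0.028 (SE 0.056, limma adjusted p = 0.991). In that comparison 7 of 306 miRNAs passed (2.29%), among them miR-208b, a miRNA encoded within the slow myosin gene Myh7, which was detected on 18 of 29 arrays and is given no size here. Between days 3 and 28 the differences were -0.018 for miR-378 and 0.026 for miR-378* (limma adjusted p = 0.846 and 0.813), where 1.96% of the miRNAs were called. Between days 1 and 3 they were -0.0034 and 0.0017 (limma adjusted p = 0.990 for both), with 0% called and 6 at an unadjusted p under 0.05.

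The exposure difference itself was compared between days. For miR-378 it changed by 0.041 from day 1 to day 3, by -0.034 from day 1 to day 28 and by -0.075 from day 3 to day 28, with limma adjusted p-values of 0.904, 0.988 and 0.982. For miR-378* the values were -0.028, -0.0064 and 0.021, with limma adjusted p-values of 0.947, 0.998 and 0.982. No miRNA was called in these 3 tests (0% each), and 2, 3 and 1 had an unadjusted p under 0.05.

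Placed in order, the miR-378 means ran from Printex 90 at day 3 through Printex 90 at day 1, vehicle at day 1, Printex 90 at day 28 and vehicle at day 28 down to vehicle at day 3. Each step between neighbours, 0.0011 to 0.037, was below the larger SD of the pair. The miR-378* means ran from vehicle at day 28 through vehicle at day 3, vehicle at day 1, Printex 90 at day 28 and Printex 90 at day 1 to Printex 90 at day 3, in steps of 0.00093 to 0.025, which were also within the spread. The 3 vehicle groups thus came first for miR-378*, in an order that the replicate error does not separate.

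The balance of the strands within a heart was examined next, because dividing one strand by the other on the same array removes the scaling of that array. It is given as miR-378* minus miR-378 in log2, centred on the mean of all 29 arrays. At day 3 the 6 vehicle hearts had balances of -0.045, -0.056, 0.088, 0.023, 0.14 and 0.17. The 4 Printex 90 hearts had -0.012, -0.078, -0.16 and -0.071; 3 of them lay below every vehicle heart and the ranges overlapped through the fourth.

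The day 3 balance was -0.13 in exposed against vehicle hearts (exact two-sided permutation test over samples, p = 0.0476, adjusted p = 0.140 over 4 tests), so the difference did not pass after adjustment. It was -0.063 at day 1 (exact permutation p = 0.462), -0.035 at day 28 (exact permutation p = 0.667) and -0.077 over the days (permutation p = 0.0700, adjusted p = 0.140). Exposed hearts lay below the vehicle mean in 4 of 6, 4 of 4 and 3 of 5 cases at days 1, 3 and 28.

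In the authors' table of the series, which adds the fifth exposed mouse at day 3, the day 3 balance was -0.21 and passed (exact permutation test, adjusted p = 0.0346). With the same table restricted to the arrays that had scanner values it was -0.16 (exact permutation test, adjusted p = 0.106). That mouse, replicate 3, had 10.19 for miR-378 and 8.55 for miR-378* in the table, where the 5 exposed mice of day 3 span 9.94 to 10.30 and 8.55 to 8.89, so it was the lowest of them for miR-378*. The day 3 balance was also taken within slides, a check chosen after seeing the data. It was -0.18 on slide 1 (2 arrays) and -0.22 on slide 2 (3 arrays), but 0.0055 on slide 3 (4 arrays).

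**Figure D3:**
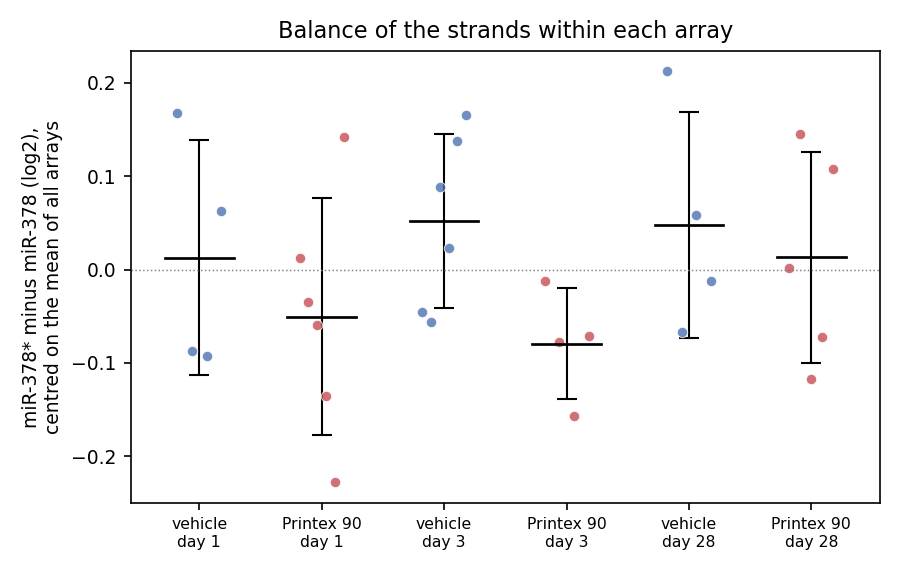
Balance of the strands, miR-378* minus miR-378 in log2 within each array and centred on the mean of all arrays (y axis), by treatment and day (x axis); points are mice, long bars group means and whiskers 1 SD. At day 3, 3 of the 4 Printex 90 hearts lie below all 6 vehicle hearts, and the difference of -0.13 does not pass after adjustment (adjusted p = 0.140).

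With the scaling used here, both strands were among the least variable miRNAs measured. Within groups the SD between mice was 0.084 for miR-378, with 5 of the 306 miRNAs below it, and 0.11 for miR-378*, with 29 of 306 below it; the median miRNA had 0.27. Over all 29 hearts miR-378 spanned 9.77 to 10.15 and miR-378* spanned 8.34 to 8.74, ranges of 0.38 and 0.40. This SD also holds differences between arrays and slides, which the fit does not separate from those between mice. The spread depended on the processing. In the authors' table of the series the group SDs ran from 0.043 to 0.30 for miR-378 and from 0.13 to 0.27 for miR-378*.

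**Figure D4:**
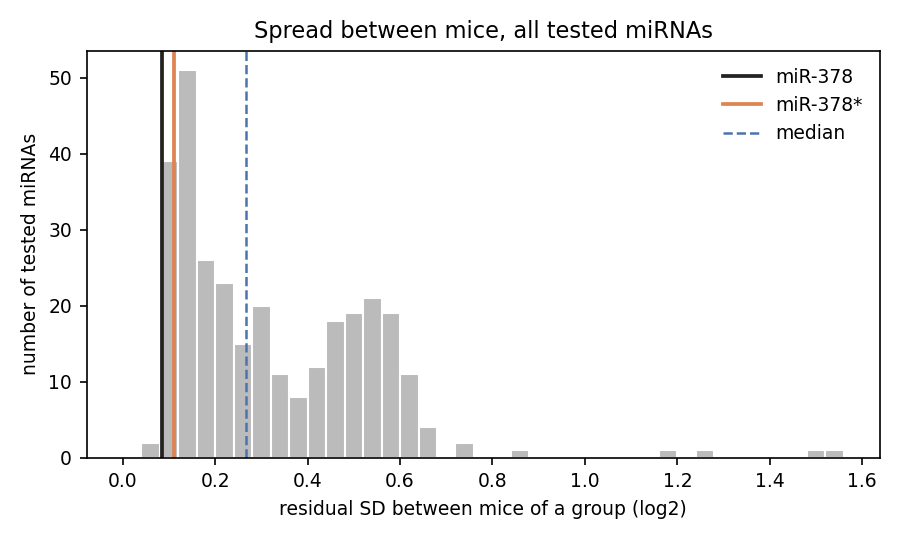
Residual SD between mice of a group in log2 (x axis) for the 306 tested miRNAs (y axis, number of miRNAs per bin); solid lines mark miR-378 (0.084, black) and miR-378* (0.11, orange) and the dashed line marks the median of 0.27. Both strands lie in the low tail, with 5 and 29 miRNAs at smaller values. The SD also holds differences between arrays and slides.

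The array's technical readings of the strands were close. The 2 probes of miR-378 followed each other over the 29 arrays with a Pearson r of 0.91, and those of miR-378* with 0.99, as a description across arrays that share scaling. Probe by probe, exposure at day 3 gave 0.084 and 0.072 for miR-378 and -0.055 and -0.052 for miR-378*. Each probe was printed in 20 spots, whose signals had a median coefficient of variation from 3.1% to 5.0%. No spot of any array was saturated, and 18.4% to 27.5% of spots were well above background.

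Slides were a source of spread on these arrays. The 29 arrays lay on 4 slides, and 52 of 306 miRNAs (17%) differed between slides (limma F test, adjusted p under 0.05). The miR-378 mean was 10.06 ± 0.070 (SD, n = 6) on slide 1 and between 9.95 and 9.96 on the others (limma F, adjusted p = 0.264). That of miR-378* ran from 8.54 to 8.59 (limma F, adjusted p = 0.783). Neither strand passed, which does not show that slides had no part in their values. Within slides, the exposure difference in miR-378 was 0.036, 0.047, 0.061 and -0.065 at day 1 (slides 1 to 4), 0.10, 0.19 and -0.037 at day 3 (slides 1 to 3), and 0.051, 0.16 and -0.092 at day 28 (slides 2 to 4). For miR-378* these were 0.031, -0.058, -0.094 and -0.012 at day 1, -0.078, -0.030 and -0.032 at day 3, and 0.17, -0.051 and -0.074 at day 28. No group had more than 2 hearts on a slide, so some of these within-slide values set 1 heart against 1. With slide as a fixed block no comparison of either strand was called.

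miR-378b, a separate gene whose mature sequence is close to that of miR-378, was also on the array; cross-hybridisation between such near-identical miRNAs was not tested. It had exposure differences of 0.0051 at day 1, 0.039 at day 3 and -0.055 at day 28 (limma adjusted p from 0.906 to 0.999). Its SD between mice was 0.084. miR-378c and miR-378d had no probe on the array and could not be measured.

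The miRNAs whose levels followed the strands most closely over the 29 hearts are given by Pearson r as a description; the arrays share scaling and labelling, and no test was made. For miR-378 these were miR-1a (0.62), a miRNA of heart and skeletal muscle, miR-30e* (0.60), the immune miRNA miR-155 (0.53), miR-30a* (0.51) and miR-151-5p (0.49). miR-378* ranked with miR-126-3p (0.81), the endothelial miRNA, miR-132 (0.80), miR-133b (0.77), miR-133a (0.70) and miR-185 (0.70). The strands followed each other with an r of 0.30, and miR-378b followed miR-378 with 0.45. These values depended on the processing. In the authors' table of the series they were 0.82 and 0.87, and with the percentile over all probes 0.94 and 0.96. Quantile normalisation gave 0.30 and 0.31. The order depended on the scaling. After quantile normalisation miR-1a had 0.46, miR-30e* 0.33 and miR-30a* 0.18 with miR-378, and miR-133b had 0.14 with miR-378*. In contrast miR-126-3p kept 0.60 and miR-132 0.83 with miR-378*. Cross-hybridisation was not tested, either between miR-30e* and miR-30a* or between miR-133a and miR-133b. Over the arrays, miR-378* had an r of -0.38 with the log2 scale factor of the array and miR-378 one of -0.0017.

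Mature sequences of 5 of these 10 companions are shown. Of these, miR-30e* and miR-30a*, both companions of miR-378 with the scaling used here, have sequences that share a seed, which none of the other 3 shown has. Seeds of the companions not shown, miR-133a and miR-133b among them, were not compared. The sequences run 5′ to 3′ from RefSeq (GRCm38.p6), with the seed (bases 2 to 8) in capitals; array names were matched to RefSeq names by hand.
miR-30e*: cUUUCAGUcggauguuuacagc
miR-30a*: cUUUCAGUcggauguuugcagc
miR-155: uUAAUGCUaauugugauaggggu
miR-126-3p: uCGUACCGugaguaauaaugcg
miR-132: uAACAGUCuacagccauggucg
The first pair, at chr4:120772618-120772639 (minus strand) and chr1:23272315-23272336 (plus strand), share the seed UUUCAGU and come from separate loci. miR-155 lies at chr16:84714143-84714165, miR-126-3p at chr2:26591402-26591423 and miR-132 at chr11:75173723-75173744, all on the plus strand and each with a seed of its own among those shown.

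**Figure D5:**
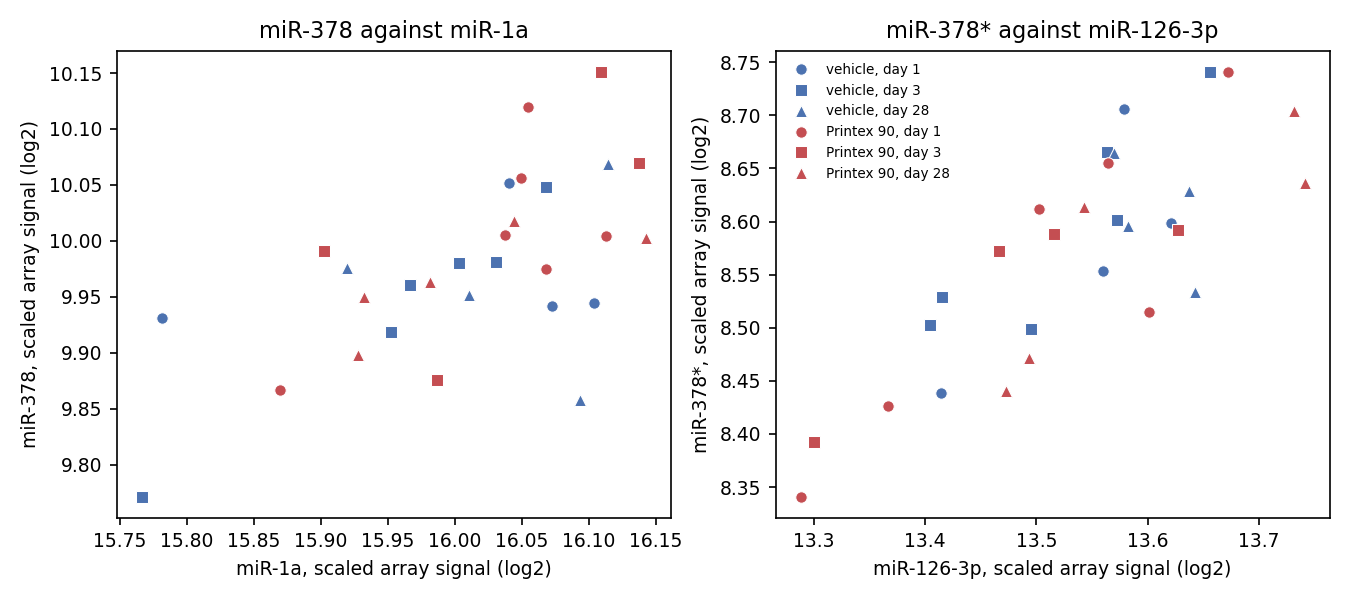
Left, miR-378 (y axis) against miR-1a (x axis); right, miR-378* against miR-126-3p; all axes are scaled array signal in log2, each point is 1 heart, colours mark treatment and shapes the day. The points of all 6 groups mix along a rising cloud in both panels, with a Pearson r of 0.62 on the left and 0.81 on the right.

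miRNAs known to act on energy metabolism were counted as a list, and 0 of them passed in any of the 10 comparisons. Over all 306 miRNAs 0% passed in 8 of these, 2.29% between days 1 and 28 and 1.96% between days 3 and 28. Of 18 on the array, 15 were tested; miR-33, which acts on sterol and fatty acid genes, and miR-696, which targets PGC-1α, were detected on 0 arrays and miR-33* on 3. The list's median exposure difference was -0.0071 at day 1, -0.016 at day 3 and -0.043 at day 28, beside -0.066, 0.031 and 0.014 over all 306 miRNAs. The members with the smallest p over the days were miR-208a-3p, the cardiac miRNA in the myosin gene Myh6, at -0.12 (SE 0.065), miR-15b at 0.13 (SE 0.078) and miR-494 at -0.16 (SE 0.10), each with a limma adjusted p of 0.994. At day 28 miR-208a-3p measured -0.25 (SE 0.12) in exposed against vehicle hearts with an unadjusted p of 0.0389 (limma adjusted p = 0.906). miR-210, which restrains mitochondrial respiration in low oxygen, was measured on 29 of 29 arrays. With time, miR-181c, which targets a mitochondrial transcript of respiratory complex IV, had -0.17 at day 28 against day 1 (SE 0.056, limma adjusted p = 0.166).

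The sections carried the miRNAs of heart muscle, with 6 of 6 cardiomyocyte miRNAs tested and 5 of them detected on every array. Their summed level ran from 16.6 to 16.9 in vehicle hearts at day 1 and 16.7 to 16.9 in exposed ones, and overlapped on the other days too. This sum adds linear array signals of probes that share no scale, and mostly follows miR-1a and miR-133b (means 16.0 and 15.0). The skeletal muscle and brown fat list, tissues rich in miR-378, had 4 of 4 members tested and 0 called in any exposure comparison, where 0% of all 306 miRNAs were called, with miR-206 detected on 17 of 29 arrays. Red cell miRNAs were the least even: at day 1 miR-451 was 0.47 higher (SE 0.24) and miR-144* 0.57 higher (SE 0.26) in exposed hearts, each with a limma adjusted p of 0.742. At day 3 miR-451 gave -0.18. At day 28 it gave 0.42 (SE 0.25) and miR-144* 0.49 (SE 0.27), each with a limma adjusted p of 0.906. Over the 4 tested red cell miRNAs the exposure differences ran from 0.00032 to 0.57 at day 1, with 4 higher. They ran from -0.18 to 0.0083 at day 3, with 1 higher and 3 lower. At day 28 they ran from -0.054 to 0.49, with 3 higher and 1 lower. The list's summed level at day 1 ran from 13.5 to 14.1 in vehicle and 13.7 to 14.8 in exposed hearts, with 4 of its 5 miRNAs on the array. That sum is mostly the signal of miR-451, with a mean of 14.0 beside 10.1 for miR-144. The 5 leukocyte and 2 endothelial miRNAs also had 0 called with exposure, beside the same 0% over all miRNAs. Their part in the values of miR-378 was not tested.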

How the data were processed

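Agilent 1-colour miRNA arrays were read for 29 of 30 mice; the remaining mouse's scanner file held probe names only. The processed intensity of each spot was made by the authors with Feature Extraction 10.7.3.1, per the file headers. The deposited table of the series holds log2 values, whose scaling is not stated; its column medians were 5.78 to 5.82, and it served as an alternative.

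Spots flagged as outlying were left out and the intensities of a probe's spots averaged. Each array was divided by its 75th percentile over the 418 probes detected (at least 0.5 of spots well above background) on every array. Values were floored at 16.9 and taken to log2. Probes detected on at least 4 arrays of 1 group were kept, and a miRNA is the mean of its probes: 621 probes and 306 mouse miRNAs. limma 3.58.1 (R 4.3.3) fitted 1 mean per group, with Benjamini-Hochberg adjustment over all 306 and a threshold of 0.05, two-sided. Intervals and p-values cover the spread between mice, since the labels give each sample its own number. With 1 array per mouse, that spread also holds differences between arrays and slides. Strand balances were tested by exact permutation of the arrays of a day, and over the days with 100000 resamples. The fit was tested on simulated data without slide effects. The differences added there were larger than those of the strands, so it does not bear on differences as small as theirs.

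The members, the lists and the tests were chosen with earlier results of these data known. Named miRNAs were the 2 members, up to 3 per list and comparison by smallest p, and the 5 with the highest Pearson r with each member; miR-210, miR-206, miR-33, miR-33*, miR-696 and miR-208b were named beside these after their values were seen. Alternatives covered scaling, background correction, filters, probe summary, slide, source of values and leaving out each mouse. For normexp (offset 50) the median pixel signal was used, since the files hold no mean signal column.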

Additional observations from a re-analysis of the deposited data

Results flagged for a closer look

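A pair of readings, 2 in all, stood apart from the rest of their groups by Dixon's criterion, of 18 sets of values examined, where chance alone gives about 1 in 20. miR-378 in vehicle replicate 3 of day 1 was 10.05, and its gap to the next heart was 0.90 of the range of that group of 4. It was the only heart of that group on slide 1, where the miR-378 mean was 10.06. The part of the slide in this reading was not tested. miR-378* in Printex 90 replicate 2 of day 3 was 8.39, with a gap of 0.90 of the range of its 4 hearts. Without the first heart the day 1 difference in miR-378 was 0.065 in place of 0.037, and without the second the day 3 difference in miR-378* was 0.00044 in place of -0.054; neither value was called with or without the heart.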

How the results depend on the processing

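Under the alternatives other than leaving out 1 mouse, 302 values kept their direction and their side of the threshold or moved by less than 1 SD. Another 49 changed sign, 20 within-slide values moved by more than 1 SD, and 1 passed the threshold. Some of these alternatives used only the arrays of 1 slide or of the days compared. Leaving out 1 mouse at a time, 644 kept direction and side and 52 changed sign, with 0 called. The cause of these changes was not tested. No paired analysis was possible because the labels give no numbers shared between mice of different groups.

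With the 75th percentile taken over all probes, miR-378 gave -0.012 for exposure at day 3, -0.17 at day 28, 0.17 for day 3 against day 1 and -0.22 for the change in exposure difference from day 1 to 3. miR-378* then gave 0.15 for exposure at day 1, -0.14 for day 28 against day 3 and -0.061 for the change from day 3 to 28. That scaling moved the median of all 306 miRNAs to 0.11, -0.057 and -0.16 for exposure at days 1, 3 and 28, and no scaling moved it to -0.24, 0.13 and -0.049.
With no scaling, miR-378 gave -0.15 for exposure at day 1, -0.061 at day 28, -0.0044 over the days and 0.094 for the change from day 1 to 28. miR-378* gave 0.070 for exposure at day 3, -0.075, -0.080 and -0.0056 for days 3 against 1, 28 against 1 and 28 against 3, and 0.29, 0.12 and -0.17 for the changes from day 1 to 3, 1 to 28 and 3 to 28. With quantile normalisation miR-378 gave 0.0050 for day 28 against day 3, and miR-378* gave 0.0041 and 0.0015 for exposure at days 1 and 3, -0.067 for day 28 against day 3 and -0.14 for the change from day 3 to 28.
Normexp and the software's total gene signal each gave 0.0066 for exposure in miR-378* at day 1, and the total gene signal -0.0085 both for day 3 against day 1 and for the change from day 3 to 28.

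In the series table miR-378 gave -0.096 for exposure at day 28, 0.079 for day 3 against day 1 and -0.073 for the change from day 1 to 3, and miR-378* gave 0.13 for exposure at day 1, -0.062 for day 28 against day 3 and -0.045 for the change from day 3 to 28. The day 3 strand balance of -0.21 passed there. With the arrays that had scanner values, a choice made after seeing the data, these values were -0.096, 0.075, -0.082, 0.13, -0.083 and -0.087.

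Slide as a fixed block gave, for miR-378, -0.019 for exposure at day 28, 0.0056 for day 3 against day 1 and 0.00084 for day 28 against day 1, and, for miR-378*, -0.0044 for day 3 against day 1. As a random block (correlation 0.136) it gave -0.0074 and 0.0013 for the first pair of these and -0.0013 for the last. The share of bright spots as a covariate gave, for miR-378*, -0.0072 for day 3 against day 1, and 0.0022 and 0.019 for the changes from day 1 to 3 and 1 to 28.
Within slides, miR-378 moved to 0.19 (slide 2) and -0.037 (slide 3) at day 3, to -0.065 (slide 4) at day 1, and to 0.16 (slide 3) and -0.092 (slide 4) at day 28. Its day 28 against day 1 value was 0.077 (slide 4), and its changes in exposure difference were 0.15 (slide 2) and -0.098 (slide 3) from day 1 to 3, 0.099 (slide 3) from day 1 to 28 and 0.20 (slide 3) from day 3 to 28. miR-378* moved to 0.17 for exposure at day 28 (slide 2), -0.16 for day 3 against day 1 (slide 3), 0.14 for day 28 against day 1 (slide 4) and against day 3 (slide 3), and 0.23 and 0.20 for the changes from days 1 and 3 to 28 (slide 2). The strand balance moved to 0.053 at day 1 (slide 4), 0.0055 at day 3 (slide 3), and 0.12 (slide 2) and -0.21 (slide 3) at day 28.

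Leaving out 1 mouse at a time, exposure in miR-378 ran from 0.014 to 0.065 at day 1, 0.035 to 0.13 at day 3, -0.032 to 0.038 at day 28 and 0.025 to 0.058 over the days. Its day 3 against day 1, day 28 against day 1 and day 28 against day 3 values ran from -0.031 to 0.022, -0.039 to -0.0035 and -0.040 to 0.0046, and its changes from day 1 to 3, 1 to 28 and 3 to 28 from -0.0020 to 0.095, -0.070 to 0.00067 and -0.14 to -0.032. In the same order miR-378* ran from -0.071 to 0.018, -0.072 to 0.00044, -0.065 to 0.00085 and -0.052 to -0.019, then -0.043 to 0.027, 0.0056 to 0.050 and 0.004 to 0.052, then -0.072 to 0.026, -0.050 to 0.039 and -0.035 to 0.054. The strand balance ran from -0.10 to -0.011 at day 1, -0.15 to -0.11 at day 3, -0.074 to 0.020 at day 28 and -0.089 to -0.058 over the days.

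Calls over all miRNAs for day 28 against day 1 numbered 7, against 1 with the percentile over all probes, 1 with no scaling, 4 with quantile normalisation, 3 with normexp and 3 in the series table. For day 28 against day 3 they numbered 6, against 1, 1, 4, 2 and 1. Signals were well above the local background on every array for both strands.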
